A study of Apis mellifera with 9 samples.

Results

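Among the transcripts of honey bee (Apis mellifera) larvae fed quercetin, 133 abundant genes kept nearly the same share of the gene reads in every library, whatever the diet. They were chosen by their measured values: a mean of at least 100 CPM (reads of a gene per 1000000 reads that its library gave on all genes) over 9 libraries, a place outside the 100 most abundant rows of the control diet, and a highest CPM no more than 15% above the lowest. Of 15314 gene rows in the table, 1561 met the first 2 conditions and 133 of these, or 8.52%, met the third. On all 4 scales of the libraries compared further on, 68 of the 133 met it. The choice used every library of every diet, so the values below describe these genes and no diet effect is tested on them.

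The 9 libraries came from larvae reared for 3 days on a royal jelly diet with glucose, fructose and yeast extract, at 3 libraries per diet. The control diet held no quercetin, and the other diets held 0.1 mM or 0.25 mM quercetin. Each replication of a diet used between 10 and 12 larvae that were newly hatched when grafted, and the labels name no strain. The labels give whole larvae as the source and midguts as the tissue extracted, and this could not be checked against tissue markers, because the table holds GB identifiers without names, none of which is found among the 12398 genes of the reference table (0 matches). For the same reason no known reference gene, such as actin or a ribosomal protein gene, could be looked up, and the 133 genes are described by identifier and level alone.

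Quercetin is a flavonol of pollen, nectar and honey, and bees break it down largely with cytochrome P450 enzymes. Expression assays such as quantitative PCR report a gene relative to reference transcripts that should hold the same level in all conditions compared. CPM is a share of the reads in a library, so a gene that is steady in CPM holds a constant share, and neither the number of cells nor the RNA per cell enters it. In whole tissue, fewer cells of a type and less RNA per cell cannot be told apart.

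Gene reads per library ran from 34456449 to 42874091. All 3 columns of the 0.25 mM diet have one heading, so their letters a, b and c only follow the order of the table. On principal component 1 of all tested genes, libraries b and c stood apart at 42.5 and 41.6, while library a lay at 1.56, the 0.1 mM libraries between -11.4 and -0.531 and the controls between -25.8 and -20.1. The rule was therefore also applied without b and c, as given further on.

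The 133 genes spanned a mean of 101 to 1093 CPM, with a median of 168 CPM. In single libraries they were represented by 3396 to 47943 reads. The other 1428 eligible genes had a median of 178 CPM and a median ratio of highest to lowest library of 1.40, with a largest ratio of 29.8. Steady genes made up 9.29% of the 893 eligible genes from 100 to 200 CPM, 8.39% of the 477 from 200 to 500 CPM and 5.24% of the 191 above that. They were thus spread over the whole range of levels, with the lowest share at the top of it. Of the 100 most abundant control rows, which the rule leaves out, 7 had a ratio within the limit of 15%. The median ratio of all 100 was 1.40. Together the 133 genes held 3.04% ± 0.0462 of the reads on genes under the control diet (SD, n = 3). Under the lower dose they held 3.04% ± 0.0455, and under the higher dose 3.00% ± 0.0433.

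**Figure D1:**
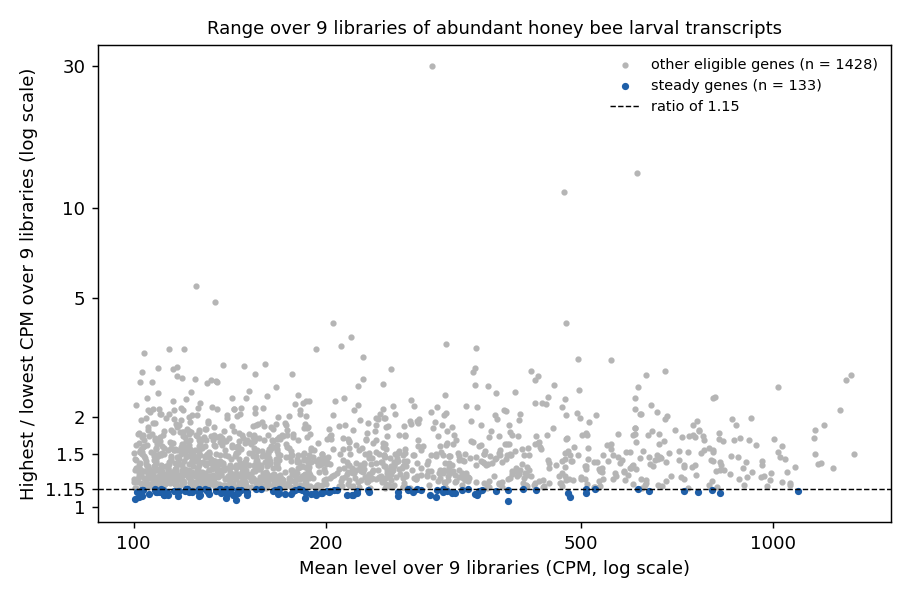
Each point is a gene with a mean of at least 100 CPM outside the 100 most abundant control rows, placed by its mean CPM over 9 libraries (x, log scale) and by its highest CPM divided by its lowest (y, log scale). The 133 steady genes in blue lie under the dashed line, which marks the limit of 15% above the lowest, and run from 101 to 1093 CPM, and the 1428 other genes in grey reach a ratio of 29.8.

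GB42019-RA had the smallest range of all. Its CPM was 386, 389 and 379 in the controls, 390, 381 and 394 at 0.1 mM and 376, 381 and 390 at 0.25 mM. The highest library exceeded the lowest 1.048-fold. The diet means were 384 ± 5.31, 388 ± 6.61 and 382 ± 7.01 CPM (SD, n = 3), and the libraries of the diets overlapped. GB53937-RA followed with 143, 147 and 143 CPM in control, 148, 145 and 140 at 0.1 mM and 146, 143 and 148 at 0.25 mM, a ratio of 1.056. Its highest and lowest diets were 1.01-fold apart. GB53034-RA, the least abundant of the 133 genes, stood at 102, 98.6 and 104 CPM in control, 98.8, 99.7 and 101 at 0.1 mM and 97.8, 103 and 101 at 0.25 mM, a ratio of 1.063. In these genes the libraries of each diet interleaved with those of the others.

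GB47102-RA ranged from 136 to 145 CPM, with diet means of 138 ± 1.76, 141 ± 3.72 and 140 ± 3.06 CPM in control, 0.1 mM and 0.25 mM (SD, n = 3). GB50750-RA ranged from 180 to 192 CPM and had the closest diet means of the 8 steadiest genes, at 186 ± 5.15, 185 ± 5.19 and 185 ± 4.79 CPM. GB54761-RA was the most abundant of the 8, with 497, 480 and 470 CPM in control, 462, 476 and 486 at 0.1 mM and 486, 476 and 495 at 0.25 mM. In all 3 genes the libraries of the diets overlapped. GB55434-RA ran from 96.4 to 104 CPM, and its lowest value, in control 3, lay apart from the 8 others at 101 CPM or more. GB51192-RA ran from 290 to 313 CPM, with the highest value in control 2 and the 8 others at or below 304 CPM. In both of these genes a single control library set the range.

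**Figure D2:**
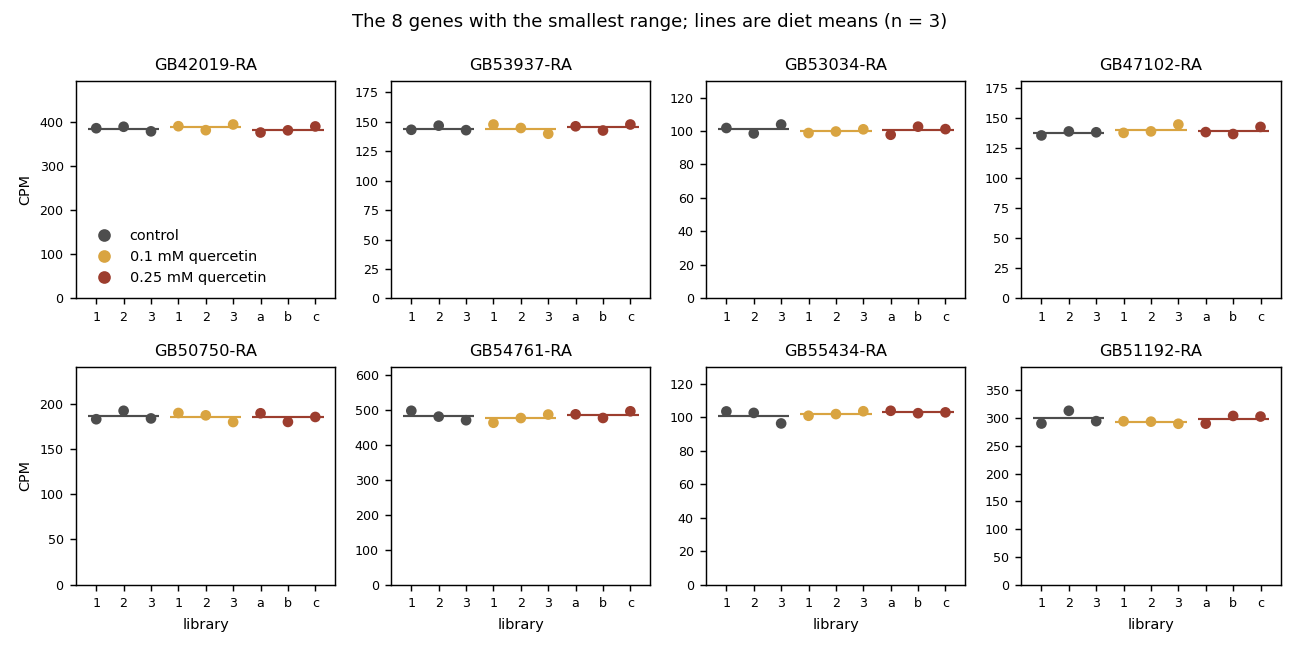
CPM in each of 9 libraries (points, x) for the 8 genes with the lowest ratio of highest to lowest library, with lines at the mean of the 3 libraries of each diet. The axes start at 0, and within each panel the highest library exceeds the lowest by 1.048-fold (GB42019-RA) to 1.081-fold (GB51192-RA).

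The 4 most abundant steady genes had ratios from 1.112 (GB49448-RA) to 1.137 (GB43088-RA), beside a median of 1.12 for all 133. GB53729-RA stood at 1047, 1171 and 1037 CPM in control, 1148, 1116 and 1059 at 0.1 mM and 1118, 1048 and 1094 at 0.25 mM, so that its highest and lowest libraries were both controls. GB49448-RA had 814, 813 and 797 CPM in control, 886, 803 and 808 at 0.1 mM and 857, 808 and 842 at 0.25 mM, with 0.1 mM replicate 1 the highest. In both genes the diets overlapped. GB43088-RA had 833, 827 and 819 CPM in control, 794, 797 and 854 at 0.1 mM and 751, 782 and 766 at 0.25 mM, and there all 0.25 mM libraries lay below all others. GB47313-RA had 743, 768 and 729 CPM in control, 750, 745 and 789 at 0.1 mM and 722, 806 and 811 at 0.25 mM, where library a was the lowest of all 9 and library c the highest. GB45179-RA, next to GB53034-RA at the low end, averaged 103 ± 3.12, 104 ± 3.41 and 97.1 ± 2.09 CPM in the diets in order of dose.

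The limit of 15% cut through a continuous distribution. Just inside it lay GB46652-RA, GB50244-RA and GB40452-RA, with ratios of 1.1482, 1.1492 and 1.1496. Just outside lay GB41681-RA, GB46253-RA and GB52315-RA, with 1.1504, 1.1504 and 1.1507. Their mean CPM was 509, 127 and 139 inside the limit and 135, 158 and 193 outside it. A limit of 1.1 would have kept 24 genes and a limit of 1.2 would have kept 289.

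Even in these genes the libraries differed by more than counting error. The coefficient of variation over 9 libraries had a median of 3.89% (1.60% to 6.23%), against a median of 1.24% that counting alone would give at these read numbers. The chi-square per degree of freedom of the counts was under 2 in 2 of the 133 genes, GB53034-RA at 1.62 and GB53937-RA at 1.97, and had a median of 10.1. GB53729-RA, with the most reads, reached 79.4. In most of these genes the spread between libraries was thus wider than their read numbers alone would leave. Among the other 1428 eligible genes the median coefficient of variation was 11.5%.

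The diets differed little in these genes, as the rule requires. Diet means of the 133 genes differed by a median of 1.05-fold between the highest and the lowest diet (1.00 to 1.11), and the widest ratio within a diet had a median of 1.09. Differences between diets held a median of 28.5% of the variance of log2 CPM, where diet has 2 of the 8 degrees of freedom, or 25%, and 59.0% among the other eligible genes. For the steady genes the rule itself limits what the diets can add, and nothing is read from this share. In order of dose the means rose stepwise in 22 of the 133 genes, fell stepwise in 40 and did neither in 71.

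GB44067-RA had the widest diet means of the 133. Its CPM was 128, 127 and 123 in control, 121, 122 and 124 at 0.1 mM and 112, 114 and 114 at 0.25 mM. All libraries of the higher dose thus lay below all others, and 93.4% of its variance lay between diets. GB48308-RA had 642, 657 and 634 CPM in control, 584, 613 and 648 at 0.1 mM and 574, 588 and 594 at 0.25 mM, again with the higher dose below control. A small ratio over all libraries therefore did not mean that the diets overlapped. GB50289-RA was the opposite case, with the widest spread within a diet: 134, 141 and 135 CPM in control, 132, 133 and 135 at 0.1 mM and 128, 143 and 147 at 0.25 mM. Its lowest and highest values over all libraries were libraries a and c of the same diet.

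Which library was extreme was uneven. Library a of the 0.25 mM diet was the lowest of 9 in 48 of the 133 genes, and the next most frequent were 0.1 mM replicate 1 and library c with 19 each. The highest library was 0.1 mM replicate 3 in 38 genes and control 2 in 33. The median departure from a gene's own mean, on the log2 scale of CPM, was -0.045 in library a, 0.047 in 0.1 mM replicate 3 and 0.035 in control 2, and between -0.017 and 0.007 in the other 6. By this median the libraries that departed most were 1 of each diet. Library c, with a median of 0.0070, was still the highest in 19 genes and the lowest in 19, and library b the highest in 9 and the lowest in 9. The first component of the 133 profiles held 32.5% of their variance, with its largest weights on library a (0.59) and 0.1 mM replicate 3 (-0.47).

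**Figure D3:**
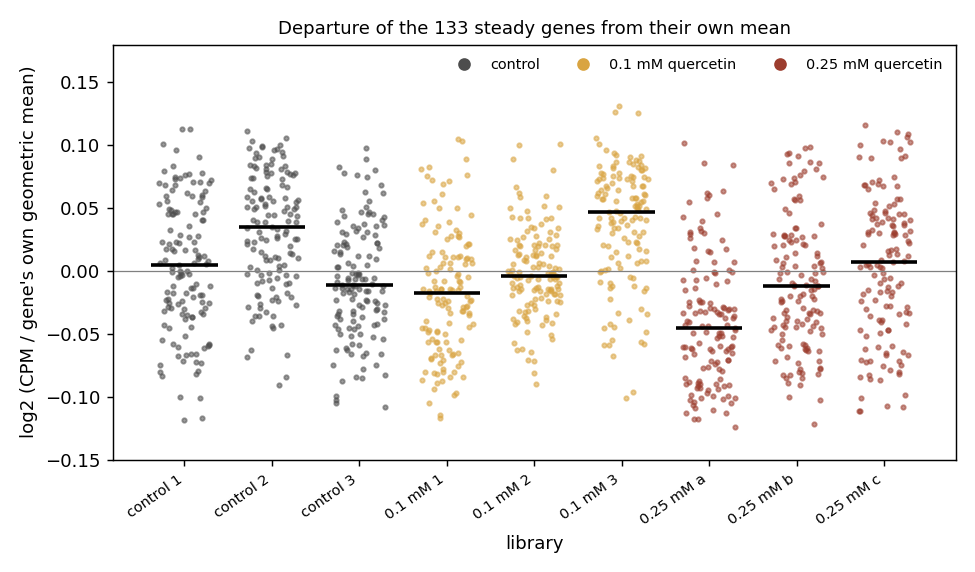
Each point is 1 of the 133 steady genes in 1 library (x), placed by the log2 of its CPM over its own geometric mean of 9 libraries (y), and the black bars are medians over genes. The medians are lowest in 0.25 mM library a (-0.045) and highest in 0.1 mM replicate 3 (0.047).

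How the steady genes stood between diets depended on the scaling of the libraries. In CPM, 85 of the 133 genes had a lower mean at 0.25 mM than in control and 48 a higher one, with a median log2 ratio of -0.027, beside -0.069 over all 11508 genes tested. TMM scales libraries on the premise that most genes do not change. Its factors averaged 1.02 ± 0.0125 for the controls, 1.02 ± 0.0367 for the lower dose and 0.967 ± 0.0106 for the higher dose (SD, n = 3). On that scale 97 of the 133 genes had a positive fitted log2 difference and 36 a negative one, with a median of 0.048, beside 0.007 over all genes. The 20 most abundant rows took 20.4% ± 0.537 of the reads on genes in the controls (SD, n = 3), and under the higher dose they took 23.6% ± 0.582. The part of these rows in the difference between the scales was not tested.

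The same turn was seen in the libraries. In CPM, 40 of the 133 genes had no overlap between control and 0.25 mM, of which 9 were higher and 31 lower at 0.25 mM. Over all genes tested, 48.3% had no overlap, 14.4% higher and 33.9% lower. With TMM-scaled CPM, 27 of the 133 were higher without overlap and 6 lower, beside 2517 and 2814 of all genes. Between control and 0.1 mM, 8 of the 133 had no overlap in CPM, beside 23.4% of all genes, and between the doses 30, beside 34.2%. The rule limits how far any of these genes can separate, so these shares say nothing of their own.

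In the fit over all genes with TMM factors, 5 of the 133 were called higher at 0.25 mM than in control and 0 lower (edgeR quasi-likelihood test, adjusted p under 0.05). Over all genes tested 35.6% were called, 17.1% higher and 18.5% lower. At 0.1 mM against control 0 of the 133 and 0.0695% of all genes were called, and between the doses 0 of the 133 and 0% of all genes. In these comparisons 1 and 5 of the 133 had an unadjusted p under 0.05 in edgeR, beside 1037 and 3925 of all 11508 genes. DESeq2 called 0 and 4 of the 133, the latter all higher at 0.25 mM, beside 147 of 10390 and 2111 of 9945 genes with an adjusted p. Nothing is read from these counts, since the rule used the same contrasts.

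The 5 were GB42266-RA, GB44016-RA, GB40113-RA, GB43572-RA and GB46606-RA, named for their calls after their values were seen. GB42266-RA had 136, 139 and 133 CPM in control, 140, 146 and 138 at 0.1 mM and 142, 150 and 153 at 0.25 mM, and its fitted log2 difference at 0.25 mM was 0.20 (95% interval 0.06 to 0.34). GB44016-RA had 291, 289 and 287 CPM in control, 284, 287 and 311 at 0.1 mM and 292, 319 and 323 at 0.25 mM, a difference of 0.18 (0.05 to 0.31). In both, each 0.25 mM library lay above each control, library a by the least. GB46606-RA, with one of the smaller ratios at 1.083, went from 100 ± 2.57 to 106 ± 0.961 CPM (SD, n = 3), a difference of 0.15 (0.04 to 0.27). GB46652-RA had the second largest fitted difference, 0.19 (-0.0002 to 0.37), and was not called.

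The intervals of the fit on the TMM scale come from the libraries that chose these genes, so estimates near 0 follow from the rule and the counts below only describe them. At 0.25 mM against control, the 95% interval lay within 1.1-fold in either direction for 15 of the 133 genes and within 1.2-fold for 110. At 0.1 mM against control it lay within 1.1-fold for 10 and within 1.2-fold for all 133, and between the doses for 16 and 122. Over all 11508 genes the share within 1.2-fold was 11.5% at 0.25 mM and 22.0% at 0.1 mM. The largest fall was that of GB44067-RA, at -0.08 (-0.19 to 0.03), followed by GB48308-RA at -0.06 (-0.20 to 0.07). The interval reached a median of 0.132 to either side on the log2 scale, which rests on a spread that the fit shares between genes.

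Other scalings kept some of the genes within the limit. With TMM, RLE and upper-quartile factors, 88, 83 and 72 of the 133 stayed within the limit, and 68 did so under all 3 and in CPM. Factors of these kinds brought in 70, 77 and 112 eligible genes that were not steady in CPM. Of the 8 steadiest genes in CPM, 3 were within the limit on all 4 scales. GB42019-RA had a ratio of 1.083 with TMM factors, while GB50750-RA rose to 1.165.

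GB40978-RA varied least over the 4 scalings and was singled out after its values were seen. Its ratio was 1.083 in CPM, 1.052 with TMM, 1.055 with RLE and 1.048 with upper-quartile factors, at a mean of 259 CPM. GB41304-RA at 112 CPM, GB40429-RA at 127 CPM and GB50854-RA at 221 CPM came next, with largest ratios of 1.097, 1.097 and 1.098 over the same scalings. In CPM the 0.25 mM libraries of GB40978-RA, at 250 to 252, lay below all others, at 255 or more. Those of GB50854-RA also lay below all others, and those of GB40429-RA below all controls. In GB41304-RA the diets overlapped. GB43088-RA, whose 0.25 mM libraries lay below all others in CPM, had the lowest ratio of the named genes with TMM factors, 1.042.

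**Figure D4:**
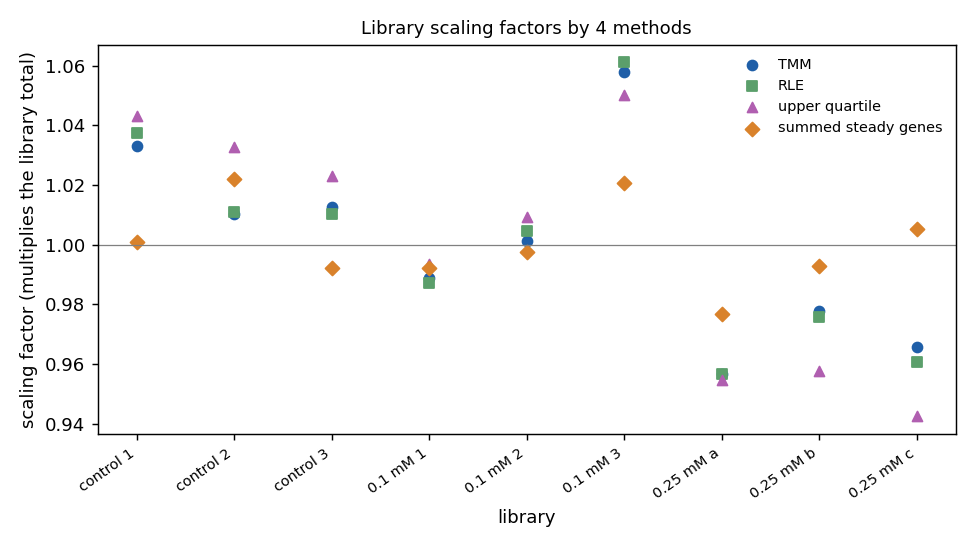
Factor that multiplies the total gene count of each library (x) under TMM, RLE, upper-quartile scaling and the summed counts of the 133 steady genes (symbols). The 3 libraries of 0.25 mM lie between 0.957 and 0.978 with TMM and between 0.977 and 1.005 with the steady genes, which are steady against the total by the rule and so stay near 1.

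Used as references for the whole table, the 133 genes changed the balance of calls at 0.25 mM. Scaling by their summed counts gave 4232 genes called against control, 1506 higher and 2726 lower, or 35.6% higher. TMM gave 1966 higher and 2133 lower, or 48.0% higher, and upper-quartile factors gave 2309 and 1802, or 56.2% higher. Of the 4099 genes called with TMM, 3639 were also called with the steady genes as reference. With the steady genes as reference, the fitted difference over all genes had a median of -0.050 on the log2 scale at 0.25 mM, against 0.007 with TMM. The rule holds the share of these genes in the library total nearly constant, and their factors ran from 0.977 to 1.022. Scaling by them is thus close to using the plain library total. The shift follows largely from the rule, and it is no check of these genes as references.

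Steadiness in control did not carry over equally to the other diets. Of the 1561 eligible genes, 1099 had a highest library no more than 15% above the lowest among the 3 controls, 1120 among the 0.1 mM libraries and 636 among the 0.25 mM libraries. Over the 6 libraries of control and 0.1 mM, 583 stayed within it, and over all 9 the 133. A range can only widen as libraries are added, so these counts had to fall or stay equal. The ratio that chose the 1099 used the controls alone, while the quercetin libraries entered through the mean of at least 100 CPM over all 9. With both conditions set on the controls, 1162 of 1614 genes were steady. Within 15% of the control mean, up or down by that factor, were 88.4%, 92.4% and 85.5% of the 1099 in 0.1 mM replicates 1, 2 and 3. In 0.25 mM libraries a, b and c the shares were 69.5%, 39.9% and 40.9%.

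Libraries b and c thus departed from the control level in most of the genes that were steady among controls. With TMM-scaled CPM the shares were 79.7%, 41.6% and 44.3% in a, b and c and between 82.3% and 91.5% at 0.1 mM. In CPM, 439 of the 1099 lay below the range in library b and 222 above it, and with TMM 376 and 266. When b and c were left out, a choice made after the data were seen, 390 genes met the rule on the other 7 libraries, and all 133 were among them. A ratio over fewer libraries cannot be larger, so the higher count and the inclusion of the 133 follow largely from the rule.

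**Figure D5:**
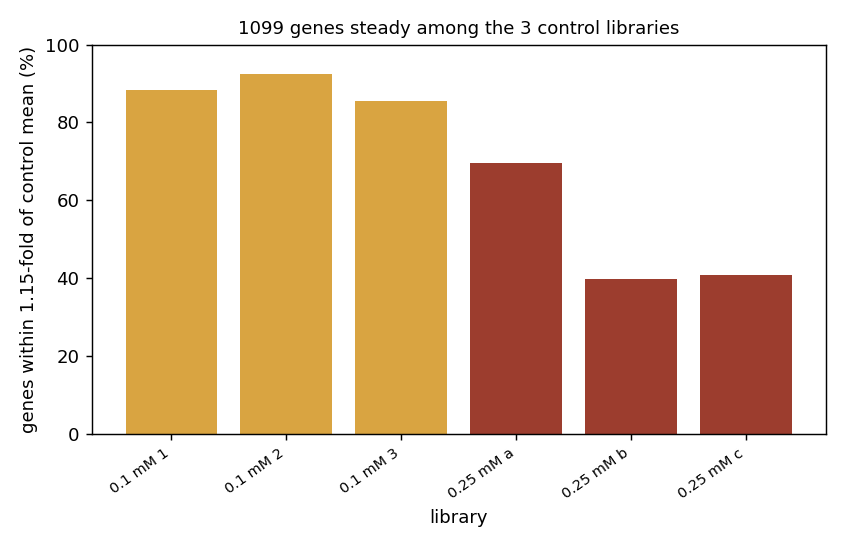
Share of 1099 genes, chosen as steady within 15% among the 3 control libraries, whose CPM lies within a factor of that size of the control mean in each quercetin library (bars from 0). The shares run from 85.5% to 92.4% at 0.1 mM and are 69.5%, 39.9% and 40.9% in 0.25 mM libraries a, b and c.

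A gene within the limit over all libraries is also within it in each diet, so the count within diets cannot be the smaller one. In 464 eligible genes the ratio was within the limit in each diet taken alone, and 133 of these were within it over all libraries. The other 331 had diet means that differed by a median of 1.14-fold and by up to 1.49-fold. Of the 331, 111 were called at 0.25 mM against control, 37 higher and 74 lower, or 33.5%, beside 35.6% of all genes (edgeR). The split from the 133 genes used the range over the diets, so nothing is read from this count.

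Ratios between steady genes do not depend on the library total. Over all pairs of the 133, the log2 ratio of 2 genes had a median SD of 0.069 over 9 libraries. These SDs come from the CPM values that chose and ranked the genes, so small values follow from the rule and are no separate check. The mean SD against the other 132 genes was lowest for GB42019-RA, at 0.053, and the largest value was 0.106. Among the 8 steadiest genes the SD ran from 0.019, between GB53937-RA and GB50750-RA, to 0.060 over 28 pairs.

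Only 2 pairs of the 133 had consecutive identifiers. GB41803-RA averaged 303 ± 5.23, 307 ± 12.5 and 302 ± 14.4 CPM in the diets in order of dose (SD, n = 3), and GB41804-RA 155 ± 4.89, 152 ± 2.14 and 146 ± 3.71 CPM. GB53131-RA averaged 196 ± 5.40, 189 ± 7.26 and 191 ± 7.85 CPM, and GB53132-RA 328 ± 6.70, 323 ± 7.22 and 304 ± 7.87 CPM. The SD of the log2 ratio within these pairs was 0.062 and 0.061, close to the median over all pairs. GB53132-RA was also within the limit on all 4 scales, with a largest ratio of 1.112.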

How the data were processed

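RNA-seq reads of 9 libraries were analysed from 1 table of raw read counts per GB identifier, deposited by the authors without normalisation. The submitters' processing notes name CASAVA 1.8, HTSeq and edgeR but give no roles. The sources used here name no aligner, genome build or strand setting, so no coordinate or sequence is reported. Reads of antisense genes may be mixed, and so may reads of overlapping genes that were not set aside as ambiguous. The bookkeeping line of ambiguous reads held 1777734 to 2199869 reads per library. Genes held 65.6% to 66.7% of all reads, and the 5 bookkeeping lines with the rest entered neither totals nor tests. Columns were matched to diets by their headings, and 0 were left unused. The libraries of 1 diet differed by more than counting noise (chi-square per degree of freedom 12.5 to 113).

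CPM is the deposited count over the sum of the GB rows, scaled in the usual way. Counts were also fitted in R 4.3.3 with edgeR 4.0.16: 11508 genes kept by filterByExpr, TMM factors, a quasi-likelihood model with 1 coefficient per diet over all 9 libraries, Benjamini-Hochberg adjustment over all genes, threshold 0.05. DESeq2 1.42.0, other scalings, no filter, a replicate block and single libraries left out were alternatives. The fit was tested on simulated data. The labels do not say whether replications used separate colonies, and a p-value here measures only how these libraries vary. Counting errors cover counting only.

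The genes, the rule and the tests were chosen with earlier results of these data known. Named are the 8 genes with the smallest ratio, the 4 most and 2 least abundant, the 3 nearest the limit on each side, those with the 2 largest fitted differences each way, those with the widest spread between and within diets, and those with consecutive identifiers. Others are said to be named after their values were seen. The lists of reference genes and tissue markers could not be looked up.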

Additional observations from a re-analysis of the deposited data

How the results depend on the processing

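The number of steady genes was 133, and it followed the limits chosen. It was 24 and 289 at ratios of 1.1 and 1.2, 253 and 50 at means of at least 50 and 200 CPM, and 238 with the 20 most abundant rows out of the library totals, where 2054 genes were eligible. It was 78 with all reads as the total, where lower CPM left 955 eligible, and 1162 with both conditions set on the controls alone. Without 0.25 mM libraries b and c it was 390, and with the limit set within each diet 464, both chosen after the data were seen. TMM, RLE and upper-quartile sizes, the 100 most abundant rows left in and single libraries left out (136 to 176) kept it within 1.5 times. A ratio over fewer libraries cannot be larger, so the counts with libraries left out could hardly fall.

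The 5 steady genes called at 0.25 mM became 18 under upper-quartile scaling, 11 in DESeq2, 0 with the steady genes as reference, 0 with no filter, 0 without b and c, and 0 to 25 with 1 library left out (25 without library a, 0 without any 1 of the controls, 0.1 mM replicate 2 or c). Each of the 5 kept its call in 4 to 6 of 15 alternatives and its direction in all. Of all genes, 4111 of 11508 were called with upper-quartile factors and 4553 of 11282 in DESeq2. With the steady genes as reference 4232 of 11508 were called, and with no filter 3880 of 13966. The 0 with the steady genes as reference follows largely from scaling them to their own sum, so nothing is read from it. Over all genes the count at 0.25 mM ran from 1112 to 6491 with 1 library left out, without c and without a, and was 82 without b and c.

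At 0.1 mM the count over all genes was 8, and 13 with upper-quartile factors, 15 with no filter, 147 with DESeq2, 43 without b and c, 0 to 112 with 1 library left out (112 without library a) and 38 on the 6 libraries alone. With the replicate block on those 6 it was 23, of which 0 were steady genes. Same-numbered libraries of these diets deviated together with r = -0.078, 0.096 and -0.121 over genes, so the numbers were not taken as pairs, and not every library correlated best with its own number. The 0.25 mM columns carry no usable number. Between the doses the count was 0 over all genes in edgeR (3925 at an unadjusted p under 0.05) but 2111 with DESeq2, 4 of them steady genes. With 1 library left out it was 0 to 5367, and 0 to 20 for the steady genes, both highest without library a. The cause of these moves was not tested.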
